A study of Mus musculus with 11 samples.

Results

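The transcription factors that carry the rhythm of the circadian clock to other genes were examined in the aorta of old mice given nitrate. 7 genes were taken, Dbp, Tef, Hlf, Nfil3, Bhlhe40, Bhlhe41 and Rora, by the gene name in the array files, with every probe of each. They were covered by 9 probes, of 36413 gene names and 55681 probes on the array, and all 9 probes were detected. Gene expression was measured on one-color Agilent mouse arrays, where Cy3-labeled RNA of a single sample hybridizes to short oligonucleotide probes, with 1 array for each of 11 mice. The paper names 6 replicates per group, and 5 nitrate arrays were analysed here. The nitrate group consisted of 5 male C57BL/6 mice aged 20 months that drank water with NaNO3 at 1 g/L over a period of 8 weeks. The control group consisted of 6 male C57BL/6 mice of the same age and on the same standard chow, which by the paper received an equal concentration of sodium chloride. The labels of the controls call them a reanalysis of earlier samples, name no sodium chloride and carry the same treatment text as the nitrate samples. It is not given in the sources used here whether the mice of both groups were housed together in time. No hour of dissection was found in these sources either, and its part in the differences below was not tested. The tissue was the whole descending aorta, by the paper cleaned of surrounding fat. All 8 adipocyte and all 6 brown adipocyte markers followed below were nevertheless detected. The values are those of all cell types in the sample together. Fewer cells of a type and less RNA per cell cannot be told apart in such samples.

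In the clock, the activators CLOCK and BMAL1 (gene Arntl) bind E-boxes and drive their own repressors, the period and cryptochrome genes, and a set of output factors. DBP, TEF and HLF are the PAR bZIP factors, which activate genes through the D-box, and NFIL3 (E4BP4) is a bZIP repressor that occupies the same D-box. BHLHE40 (DEC1) and BHLHE41 (DEC2) are basic helix-loop-helix repressors that compete for E-boxes. RORA is a nuclear receptor that activates genes with a ROR response element, the RORE, where the REV-ERB receptors repress. Transcripts driven from E-boxes and those driven from ROREs, such as Nfil3, are known to peak at opposite phases of the day in many tissues, the vessel wall included.

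The promoters are shown because the members differ in the clock elements found near their start sites. In RefSeq promoter windows of GRCm38.p6, which reach from 250 bases before to 50 bases after a start site, 6 of the 7 members were found, Tef with 2 start sites. Bhlhe40 was not matched. Both strands were searched for the E-box CACGTG, which reads the same on both strands, for CACGTT, for the D-box forms TTATGTAA, TTACGTAA and TTATGCAA, and for the RORE cores TAGGTCA and TGGGTCA. None of these letter strings contains another. The stretches below are written 5′ to 3′ along the gene, end before the start site, and carry the matched motif in capitals.
Tef, first start site, plus strand, chr15:81802486-81802601: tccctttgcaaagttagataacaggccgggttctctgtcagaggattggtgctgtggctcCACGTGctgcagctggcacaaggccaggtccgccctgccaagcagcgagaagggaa
Tef, second start site, plus strand, chr15:81811216-81811331: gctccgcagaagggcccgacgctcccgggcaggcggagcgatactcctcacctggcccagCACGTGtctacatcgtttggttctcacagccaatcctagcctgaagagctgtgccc
Bhlhe41, minus strand, chr6:145865518-145865633: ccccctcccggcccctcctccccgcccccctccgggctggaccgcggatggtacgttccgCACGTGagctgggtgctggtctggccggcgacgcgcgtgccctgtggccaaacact
Nfil3, minus strand, chr13:52981040-52981111: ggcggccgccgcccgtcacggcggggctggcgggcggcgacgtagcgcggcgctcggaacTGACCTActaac

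The E-box lay 127 and 138 bases before the start sites of Tef and 153 bases before that of Bhlhe41. In Nfil3 the core TAGGTCA lay on the opposite strand, 12 bases before the start site. CACGTG occurred in 7.15% of 32851 windows of the same length, CACGTT in 4.68%, a D-box form in 1.78% and a RORE core in 6.45%. The windows of Dbp, Hlf and Rora held none of the letters searched, which says nothing of elements outside these windows. A match is a description of the sequence and not a bound site.

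All 3 PAR bZIP activators had higher expression in nitrate treated mice. Dbp had a 2.33-fold higher signal, Tef 1.67-fold and Hlf 1.65-fold. The D-box repressor Nfil3 was 1.67-fold lower, and the E-box repressor Bhlhe41 was 1.45-fold higher. Differential expression here means more than a 1.2-fold change and P below 0.05 without adjustment, the thresholds of the study, by limma. By this measure 4 of the 7 members were higher, against 4.16% of 23632 detected probes, and 1 was lower, against 4.85%. The members were chosen with earlier results of these data known, and several vary together, such as Dbp and Tef. These counts are therefore a description and not a test. The other members, Bhlhe40 and Rora, did not pass. The median difference of the 7 members was 0.54 on the log2 scale, against 0.01 over all detected probes. After Benjamini-Hochberg adjustment over all detected probes none of the 7 members passed 0.05 with limma, while 0.0127% of the probes did, and 5 members had an unadjusted P value under 0.05. By the exact permutation test over the 462 divisions of the mice, 3 members, Dbp, Tef and Hlf, had a P value under 0.05. Groups did not overlap in 1 of the 7 members, Dbp, against 2.75% of the probes. Single values in the following are quantile normalized log2 signals, and levels of different probes are not compared.

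**Figure D1:**
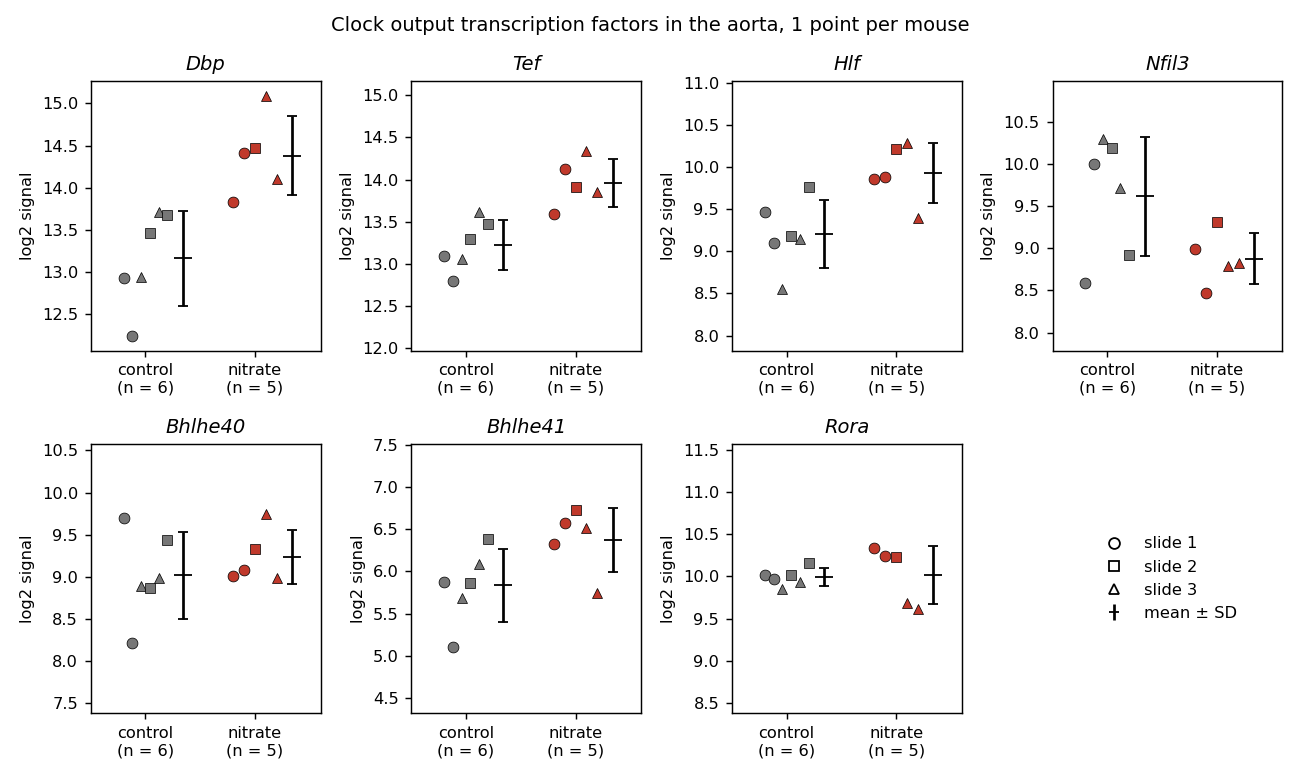
Quantile normalized log2 signal of the 7 output factors by group, with 1 point per mouse, the point shape giving the slide and the bar the mean ± SD. All panels span the same log2 range. The 5 nitrate treated mice lie above the 6 controls for Dbp, while the Nfil3 controls are spread widely and the Rora nitrate points fall into a high and a low part.

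Dbp, the albumin D-box binding protein and one of the most strongly cycling transcripts known, was measured by 2 probes on chromosome 7. In the nitrate treated mice 1 to 5, the brighter probe (mm9, chr7:52965461-52965520, plus strand, base 1565 of NM_016974) gave 13.83, 14.41, 14.47, 15.09 and 14.10. In the controls 1 to 6 it gave 12.93, 12.24, 12.94, 13.46, 13.71 and 13.68. Every nitrate treated mouse was above every control, with mouse 4 the highest and control 2 the lowest. The means were 14.38 ± 0.475 (SD, n = 5) and 13.16 ± 0.57 (SD, n = 6). The difference was 1.22 (SE 0.28, 95% confidence interval 0.60 to 1.84), with P = 0.00103 and an adjusted P of 0.138 by limma and an exact permutation P of 0.00216, the smallest that 5 against 6 mice can give.

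The second Dbp probe lies upstream in the same transcript (chr7:52965322-52965381, base 1426). It showed a difference of 1.14 (SE 0.26, 95% confidence interval 0.57 to 1.71), 2.20-fold, with an adjusted P of 0.138 by limma, and its groups did not overlap either. Both probes measure the same RNA of the same mice and are not separate evidence.

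Tef, the thyrotroph embryonic factor, was measured by 1 probe (mm9, chr15:81657221-81657280, plus strand, base 4171 of NM_017376). The signals of nitrate treated mice were 13.59, 14.13, 13.91, 14.34 and 13.85. The controls had 13.09, 12.80, 13.06, 13.30, 13.62 and 13.47. As with Dbp, mouse 4 was the highest and control 2 the lowest, and 4 of 5 nitrate treated mice were above all controls, with mouse 1 just under control 5. The difference was 0.74 (SE 0.16, 95% confidence interval 0.39 to 1.09), from 13.22 ± 0.30 in controls (SD, n = 6) to 13.96 ± 0.29 (SD, n = 5). P was 0.000655 and the adjusted P 0.122 by limma, and the exact permutation P value was 0.00649.

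Hlf, the hepatic leukemia factor and the remaining PAR bZIP member, was measured by 1 probe (mm9, chr11:90200696-90200755, minus strand, base 2758 of NM_172563). Nitrate treated mice had 9.86, 9.88, 10.21, 10.29 and 9.39. Controls had 9.47, 9.10, 8.55, 9.18, 9.15 and 9.76. Mouse 5 fell within the control range, between controls 4 and 1, and the other 4 were above all controls. The difference was 0.72 (SE 0.21, 95% confidence interval 0.27 to 1.18), between means of 9.93 ± 0.35 (SD, n = 5) and 9.20 ± 0.41 (SD, n = 6). P was 0.00455, the adjusted P 0.195 by limma and the exact permutation P value 0.013. Dbp, Tef and Hlf passed the thresholds in all 11 other settings and with each of the 11 arrays left out.

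Nfil3, the repressor at the D-box whose RORE core is shown above, moved the other way (probe at mm9, chr13:53062578-53062637, minus strand, base 1932 of NM_017373). Nitrate treated mice had 8.99, 8.47, 9.31, 8.79 and 8.83. Controls had 8.59, 10, 10.30, 10.19, 9.71 and 8.92. All 5 nitrate treated mice were below the control median of 9.85, but controls 1 and 6 lay within the nitrate range. The controls spread more than the nitrate treated mice, at 9.62 ± 0.71 (SD, n = 6) against 8.88 ± 0.31 (SD, n = 5). The difference was -0.74 (SE 0.30, 95% confidence interval -1.40 to -0.08), with P = 0.0304 and an adjusted P of 0.309 by limma and an exact permutation P of 0.0584. The thresholds were no longer passed without nitrate treated mouse 2, 4 or 5 or without control 2, 3 or 4, where the difference lay between -0.73 and -0.60.

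Bhlhe41, the E-box repressor DEC2, had 2 probes on chromosome 6 that differed in outcome. The brighter probe (mm9, chr6:145811275-145811334, minus strand, base 1343 of NM_024469) gave 6.32, 6.57, 6.73, 6.51 and 5.74 in nitrate treated mice. In controls it gave 5.87, 5.10, 5.69, 5.86, 6.09 and 6.39. Mouse 5 was below the control median and 3 of the other nitrate treated mice were above all controls. The difference was 0.54 (SE 0.22, 95% confidence interval 0.06 to 1.02), with P = 0.0315 and an adjusted P of 0.312 by limma, and an exact permutation P value of 0.0628.

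The other Bhlhe41 probe (chr6:145812652-145812711, base 358) was above background on all 11 arrays, but its spot was not found on the array of control 6, which had the highest control signal with 6.27. This probe gave a difference of 0.40 (95% confidence interval -0.22 to 1.02), with an adjusted P of 0.541 by limma and an exact permutation P of 0.251, which did not pass. With the mean of both probes, the difference was 0.47 and P was 0.0764 by limma. The call was also lost with another background correction (normexp), where the difference was 0.24. It was lost as well without nitrate treated mouse 2, 3 or 4 or without control 2 or 3, with differences of 0.39 to 0.51.

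Bhlhe40, the E-box repressor DEC1 that also responds to hypoxia and hormones, did not pass (probe at mm9, chr6:108616309-108616368, plus strand, base 2502 of NM_011498). Nitrate treated mice had 9.01, 9.08, 9.33, 9.75 and 8.99. Controls had 9.70, 8.21, 8.89, 8.87, 8.99 and 9.44. The nitrate treated mice lay inside the control range except mouse 4. The difference was 0.22 (SE 0.24, 95% confidence interval -0.30 to 0.73), with an adjusted P of 0.708 by limma and an exact permutation P of 0.437. The interval includes both a small decrease and a rise as large as that estimated for Hlf.

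Rora, the activating receptor at ROREs, had nearly equal means of 10.02 ± 0.35 (SD, n = 5) and 9.99 ± 0.10 (SD, n = 6), with the wider spread in nitrate treated mice (probe at mm9, chr9:69226774-69226833, plus strand, base 1582 of NM_013646). Nitrate treated mice had 10.34, 10.24, 10.23, 9.68 and 9.61. Controls had 10.02, 9.97, 9.85, 10.02, 9.93 and 10.16. Nitrate treated mice 1 to 3 were above all controls and mice 4 and 5 were below all controls. Mice 4 and 5 were measured on slide 3, and the controls of that slide, 3 and 5, were the lowest of the controls. The difference was 0.03 (SE 0.14, 95% confidence interval -0.27 to 0.33), with an adjusted P of 0.953 by limma and an exact permutation P of 0.835. It took the opposite sign when any of the nitrate treated mice 1 to 3 was left out (-0.05 to -0.03).

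**Figure D2:**
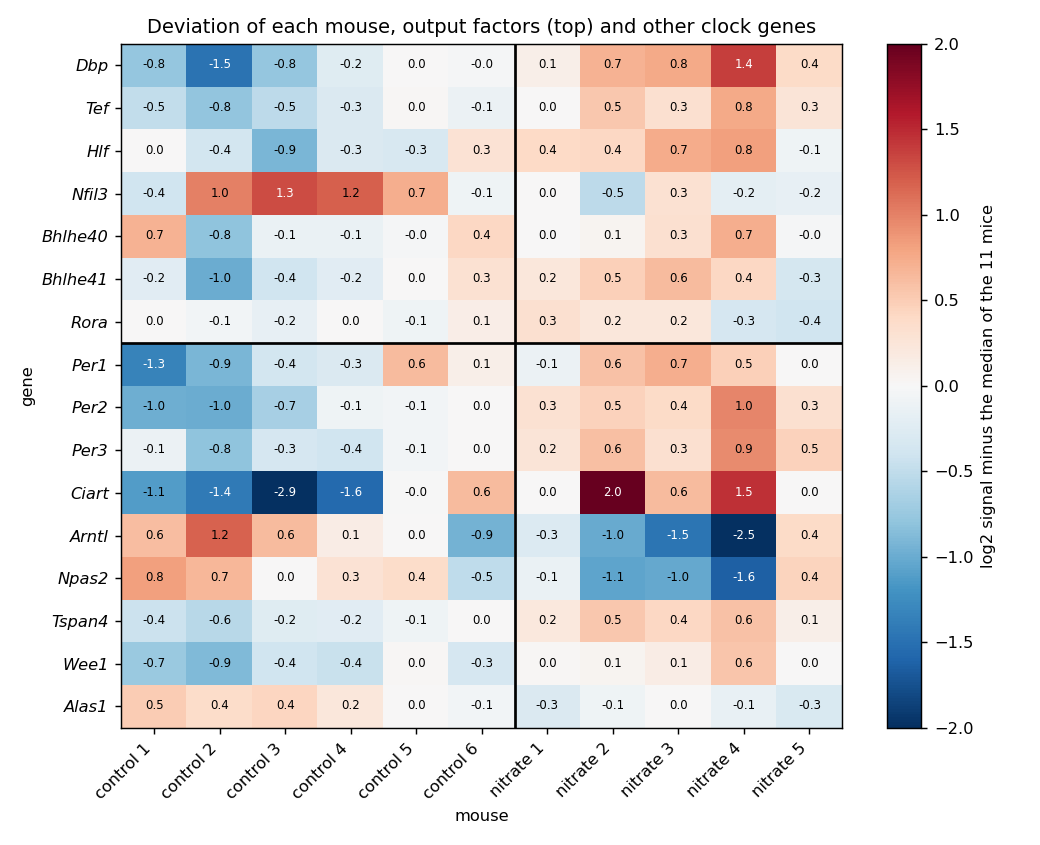
Log2 signal of each mouse minus the median of the 11 mice, for the 7 output factors above the line and for other clock and output genes that passed the thresholds and are reported here below it. Controls are on the left and nitrate treated mice on the right. Control 2 has the lowest values for Dbp, Tef, Bhlhe40 and Bhlhe41, while controls 1 and 6 show low Nfil3 with high Bhlhe40.

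Within the control group the members did not all vary together. Control 2 had the lowest signal of the 11 mice for Dbp, Tef, Bhlhe40 and Bhlhe41 and a high Nfil3. Controls 1 and 6 had the lowest Nfil3 of the controls and the highest Hlf and Bhlhe40, although control 1 was among the 3 lowest for Dbp. In the nitrate group, mouse 4 was the highest for Dbp, Tef, Hlf and Bhlhe40, and mouse 5 was the lowest for Hlf, Bhlhe40, Bhlhe41 and Rora. Control 1 also stood apart over the whole array, with the lowest mean correlation with the other arrays, at 0.985 against at least 0.990 for the others. Without it, Dbp, Tef, Hlf, Nfil3 and Bhlhe41 passed the thresholds as before.

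The 11 arrays came from 3 slides that each held both groups, which allows the difference to be read within a slide. Slide 1 held nitrate treated mice 1 and 2 with controls 1 and 2, slide 2 nitrate treated mouse 3 with controls 4 and 6, and slide 3 nitrate treated mice 4 and 5 with controls 3 and 5. The Dbp difference was 1.53, 0.90 and 1.27 on slides 1, 2 and 3, and that of Tef was 0.92, 0.52 and 0.76. Hlf differed by 0.59, 0.74 and 0.99, and Nfil3 by -0.56, -0.24 and -1.20. These 4 genes kept their direction on every slide, as did Bhlhe41 with 0.96, 0.60 and 0.23 and Bhlhe40 with 0.09, 0.18 and 0.43. Rora differed by 0.29, 0.14 and -0.25, so slide 3 went against the other slides. Within a slide there were at most 2 mice of a group, and no test was made. All controls were in column 3 of their slide and no nitrate array was, so the column and the treatment cannot be told apart.

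**Figure D3:**
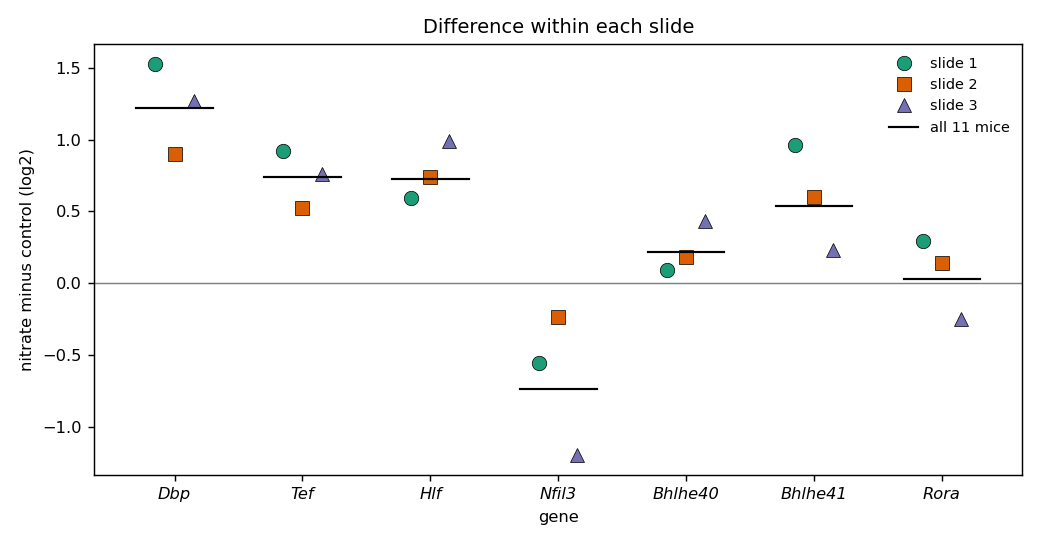
Difference between nitrate treated and control mice on the log2 scale within each of the 3 slides (points) and over all 11 mice (lines), for the 7 output factors. Points of Dbp, Tef and Hlf lie above 0 and those of Nfil3 below 0 on every slide, while Rora lies below 0 on slide 3 alone.

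Other cell types of the vessel were followed by lists of markers, all given as the summed linear signal of a list per mouse. The smooth muscle list, 6 of 6 detected, ranged from 675202 to 707731 in nitrate treated mice and from 537855 to 704783 in controls, and the endothelial list, 6 of 6 detected, from 13753 to 15984 and from 13703 to 15300. The exact permutation P values of these sums were 0.193 and 0.461, and none of the 12 markers passed the thresholds by its brightest probe, though a second probe of the endothelial marker Kdr did, with -0.57 against -0.10 for the brightest. The adipocyte list moved with the group. Of its 8 markers all were detected and 4 were lower, and the sum was 255808 to 335212 in nitrate treated mice and 330339 to 461492 in controls (exact permutation P = 0.013). Its part in the differences of the output factors was not tested. Brown adipocyte, striated muscle, macrophage and Schwann cell lists had P values of 0.221, 0.247, 0.883 and 0.838 by the same exact permutation test, with 6 of 6, 6 of 8, 6 of 6 and 4 of 5 markers detected. The striated muscle sum ranged from 15354 to 51082 in nitrate treated mice and from 8269 to 35808 in controls. In these 4 lists 1 brown adipocyte and 1 Schwann cell marker were lower by the thresholds and the others did not pass.

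The members have known inputs in the core clock, and these were read from a list of 18 genes, of which 14 were detected. 4 were higher and 3 lower by the thresholds, with a median of 0.12. The 4 higher genes included the period genes Per1, Per2 and Per3, with 0.70, 0.95 and 0.80 on the log2 scale. The other was Ciart, a repressor named Gm129 in the files, with 1.88 (SE 0.58). The cryptochrome gene Cry2 had 0.17 and did not pass. The adjusted P values by limma were 0.338, 0.133 and 0.0997 for Per1, Per2 and Per3 and 0.218 for Ciart. The probe of Per3 was above background on all 11 arrays, but its spot was marked as found on 2 of 5 nitrate and 5 of 6 control arrays, so it met the detection rule through the controls. The probe of Ciart was not well above background in 1 of 6 controls.

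Among the RORE targets, Arntl, which encodes BMAL1, was lower by a difference of -1.24 (SE 0.49, adjusted P of 0.298 by limma). Npas2, which encodes a partner of BMAL1, had a difference of -0.95 (SE 0.35, adjusted P of 0.277). Its probe was well above background on 2 of 5 nitrate and all 6 control arrays, so it met the detection rule only through the group where it is high, and the size of the difference rests on dim signals. Nitrate treated mouse 5 had the highest signals of its group, 8.01 for Arntl and 5.42 for Npas2, and was the only one of the 5 above the control median. The same mouse had the lowest Hlf, Bhlhe40, Bhlhe41 and Rora signals of its group. Of the 7 core clock genes that did not pass, Arntl2 had the largest difference with 0.21 and Rorb the lowest with -0.12, while the REV-ERBα gene Nr1d1 had -0.07. Clock, Cry1, Nr1d2 and Fbxl21 did not meet the detection rule and were not counted. Their differences were -0.22, -0.09, 0.51 and -0.12 in this order. The probe of Nr1d2 was found above background on 4 of 5 nitrate and 3 of 6 control arrays. Counted as a list, the targets of RORs and REV-ERBs had 4 of 6 genes detected and 3 lower, Arntl, Nfil3 and Npas2, the last of which was detected only through the controls, and Elovl3 with 0.23 did not pass.

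Of 6 other transcripts that cycle in many tissues, all were detected and 2 passed. Tspan4, a tetraspanin, was higher by 0.62 (SE 0.12), with no overlap of the groups, an exact permutation P of 0.00216 and an adjusted P of 0.094 by limma. Wee1, a kinase that holds back entry into mitosis, was also higher by 0.62 (SE 0.16, adjusted P of 0.159). Usp2 with 0.31, Lonrf3 with 0.24, Tsc22d3 with 0.15 and Nampt with -0.35 did not pass, and the list had a median of 0.28.

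Genes known as targets of the PAR bZIP factors in liver were read from a list of 6. Of these, 4 were detected and none was higher by the thresholds, with a median of -0.14. Alas1, the first enzyme of heme synthesis, was lower by a difference of -0.41 (SE 0.11, adjusted P of 0.185 by limma), while a second Alas1 probe gave -0.07. Por, the electron donor of cytochromes P450, had 0.04 (95% confidence interval -0.20 to 0.29). Nr1i3, the nuclear receptor CAR, had 0.51 (-0.26 to 1.27) and Cyp2b10, a P450 under its control, had -0.32 (-0.76 to 0.13). Cyp7a1 was not detected and Cyp2a5 was not found by this name.

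**Figure D4:**
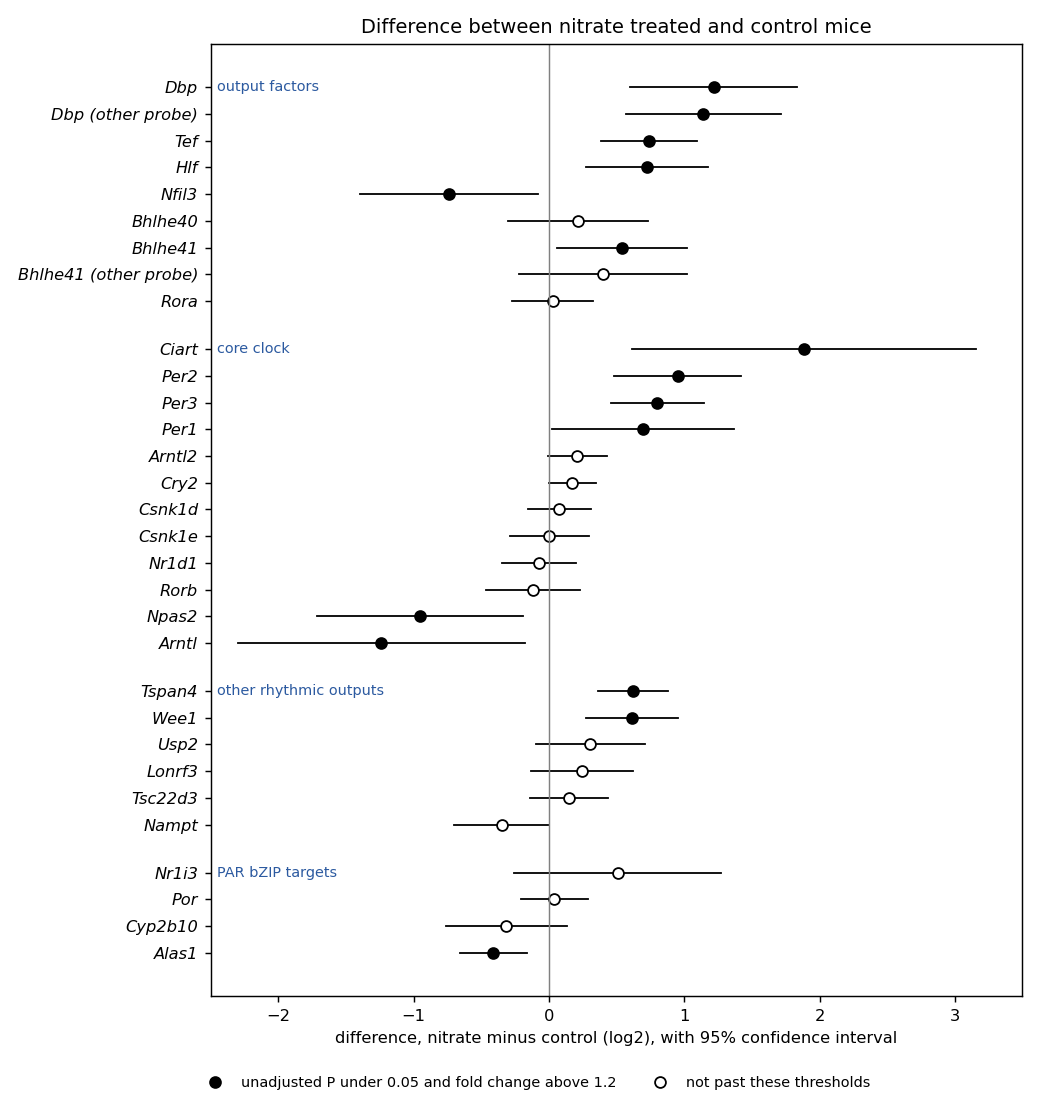
Difference between nitrate treated and control mice on the log2 scale with its 95% confidence interval, for the 9 probes of the output factors and for detected genes reported here of the core clock, other rhythmic outputs and PAR bZIP targets. Filled points changed more than 1.2-fold with an unadjusted P below 0.05. Dbp, Tef and Hlf lie on the right with Ciart and the period genes, and Nfil3 on the left with Arntl and Npas2.

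Likeness of pattern was described by the Pearson correlation of log2 signals over the 11 mice, among 12207 detected gene symbols. These correlations share the group difference and the slides. They were also taken after subtracting the group means, which leaves differences between slides in place. The gene most like Dbp was Tef, at 0.983, followed by Per2 (0.965) and Tspan4 (0.956). Tef in turn was most like Dbp, Tspan4 (0.959) and Gm5827 (0.956). With group means subtracted, Dbp and Tef were still closest to each other, at 0.956. The next for both was Fkbp5, a glucocorticoid-induced co-chaperone, at 0.933 for Dbp and 0.911 for Tef, followed by Ms4a4a (0.921) for Dbp and Gm5827 (0.905) for Tef. Fkbp5 itself was higher by 0.39 (SE 0.16) in nitrate treated mice, with an adjusted P of 0.303 by limma and an exact permutation P of 0.0498.

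Hlf was less like the other PAR bZIP members, with correlations of 0.78 to Dbp and 0.75 to Tef, which were 0.49 and 0.42 after the group means were subtracted. The genes most like Hlf were the taurine transporter Slc6a6 (0.948), Gm12337 (0.913) and the cold-inducible RNA-binding gene Rbm3 (0.892). With group means subtracted they were Qk (0.915), Maf (0.903) and Slc6a6 (0.902). Between the groups, Slc6a6 and Rbm3 were higher by the thresholds, with differences of 0.37 and 0.30. Qk was lower with -0.39, against the direction of Hlf, and Gm12337 and Maf did not pass. Nfil3 correlated at -0.72 with Hlf and -0.65 with Bhlhe40. Its most similar genes were Chn2 (0.893), Gm6900 (0.882) and Usp31 (0.867), and with group means subtracted Irx2 (0.928), Wsb1 (0.897) and Tusc3 (0.894). None of these 6 genes passed the thresholds between the groups.

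Bhlhe40 was most like Pdxk (0.873), Upp1 (0.851) and Eps8 (0.84), and with group means subtracted like Ttc9c (0.902), Upp1 (0.866) and Pdxk (0.865). Bhlhe41 was most like Zbed6 (0.909), Capg (0.896) and Ythdf2 (0.893), and with group means subtracted like Lmbrd2 (0.961), P2ry2 (0.935) and Tnc (0.919). The 2 DEC repressors correlated at 0.68 with each other, and Bhlhe41 was nearer to Dbp, at 0.84. Rora was close to no other member, with correlations between -0.13 and 0.42. It was most like Synm, which encodes the intermediate filament protein synemin (0.983), Itpripl2 (0.962) and Tspan5 (0.958). These 3 genes remained the most similar after group means were subtracted (0.984, 0.962 and 0.961), and none passed the thresholds. With 11 mice and 12207 genes, high correlations can arise without any relation, and these are given as a description.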

How the data were processed

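RNA of the aorta was measured on one-color arrays, 1 per mouse. The authors deposited spot intensities made with Feature Extraction 10.7.1.1, background-subtracted and not normalized between arrays, and a table of log2 values that are quantile normalized and centred. Here, intensities below 1 were set to 1 and log2-transformed. Flagged and control spots were dropped, repeated spots of a probe were averaged, and quantile normalization followed. Each array had 59305 spots, at most 186 of them flagged and none saturated, and the number of arrays limits the precision. A probe was tested if 5 or more arrays of a group had its spot found and well above background. Tests used R 4.3.3 and limma 3.58.1 (lmFit, eBayes), Benjamini-Hochberg adjustment and two-sided exact permutation tests. The fit was tested on simulated data. The detected probe with the highest mean signal represents a gene. Probe positions are in mm9, promoters in GRCm38.p6 from RefSeq. No protein sequences were used here.

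The members and gene lists were chosen with earlier results of these data known. Named were all members, genes of 4 clock lists that passed the thresholds, up to 4 others per list with the largest and smallest differences, and the 3 genes most like each member. Some listed genes are counted but not reported here by name. Nr1d1, Cry2, Elovl3, Kdr and the differences of core clock genes that were not detected were added after their values were seen. Alternatives were 75th percentile scaling, normexp, an offset of 16, the log2 table, other detection rules, keeping flagged spots, a trended robust prior, slide or replicate blocks, the mean over probes and leaving out each array.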

Additional observations from a re-analysis of the deposited data

How the results depend on the processing

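Dbp, Tef and Hlf passed the thresholds under all 22 alternatives, at 1.18 to 1.32, 0.73 to 0.79 and 0.65 to 0.84 over the 11 other settings, and at 1.03 to 1.36, 0.65 to 0.83 and 0.59 to 0.86 with 1 array left out. Their adjusted P values by limma stayed above 0.05, and the lowest was 0.0876, for Tef. Nfil3 passed in the 11 settings (-0.88 to -0.68) and in 5 of 11 with 1 array left out (-0.94 to -0.60), so the number of lower members was 0 to 1. Bhlhe41 did not pass with normexp background correction (0.24) or with the mean of all detected probes (0.47), and ranged from 0.39 to 0.70 with 1 array left out. The number of higher members was 3 to 4, both over the other settings and with 1 array left out. Bhlhe40 never passed (0.06 to 0.35 with 1 array left out). Rora ranged from -0.05 to 0.13 with 1 array left out, with -0.051, -0.027 and -0.026 without nitrate treated mouse 1, 2 and 3. Among core clock genes, 2 were higher with only probes detected on all 11 arrays, since fewer genes were then tested. With 1 array left out, 3 to 5 core clock genes were higher and 1 to 3 lower, 1 of them lower without nitrate treated mouse 4. The rhythmic outputs and PAR bZIP targets that passed numbered 2 to 4 over the other settings, with 2 for the mean of all detected probes, and 3 to 5 with 1 array left out, with 5 without control 5. Causes of the other losses were not tested.

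Replicate numbers did not pair the mice, with correlations of deviations between -0.136 and 0.18. With the replicate number as a block and control 6 left out, Dbp differed by 1.32 (adjusted P of 0.204 by limma) and Nfil3 by -0.88, and the block changed no call of a member. Over all detected probes 2433 passed, against 2424 without control 6 and without the block.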
